A study of Mus musculus with 8 samples.

Results

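The non-coding RNAs of the imprinted *Dlk1*-*Dio3* region, on mouse chromosome 12, were represented by 48 rows (transcript clusters) of the array, of 35556 rows in all and 23410 rows with a gene symbol. The members were chosen by the array's own numbering, from *Meg3* (10398326) to the last named non-coding row, which is shared by *Mirg* and *Mir410* (10398442). The rule took ids up to 10398460, a stretch of 63 rows, of which 10 had no symbol here and 5, beyond the last member, belonged to protein-coding genes that were left out (*Dio3*, *Rps25* and 3 rows of *Ppp2r5c*). The region had itself been selected on the measured log2 difference between genotypes in these arrays, so the genotype values below describe what was selected and none of them is a test. The members were 40 microRNA rows, 4 small nucleolar RNA (snoRNA) rows, and the rows of *Meg3*, *Rian*, *Mirg* with *Mir410*, and *Mir433* with the non-coding transcript *6430411K18Rik*.

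*Sox3* null cultures, in which a GFP reporter was knocked into *Sox3*, were compared with control cultures, whose *Sox3* allele is conditional and intact and which the methods treat as wild type. Both came from R1, a mouse ES cell line, and were harvested at Day 4 in N2B27, medium without serum that turns ES cells into neural progenitors. Either genotype gave 4 cultures, 2 from each of 2 differentiation series (batches), hybridised to an array apiece. Whole cultures were measured, so fewer cells of a type and less RNA per cell cannot be told apart. The genotypes are also different targeted lines, so that effects of the missing *Sox3* and of anything else that sets the lines apart cannot be told apart.

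In the mouse, the coding genes *Dlk1*, *Rtl1* and *Dio3* of this region are read from the chromosome inherited from the father, and *Meg3*, *Rian*, *Mirg* and the small RNAs among them from the chromosome inherited from the mother. *Meg3* is a long non-coding RNA, *Rian* carries box C/D snoRNAs in its introns, and *Mirg* lies at the end of a large microRNA cluster. The maternal RNAs of the region are known to be silenced in some mouse ES and induced pluripotent cell lines. A microRNA is cut from a hairpin, either arm of which (5p or 3p) can give a mature strand, and it finds its targets mainly through its seed, bases 2 to 8.

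Mature sequences were found in RefSeq (GRCm38.p6) for all 42 microRNAs of the region, including those that share a row. The sequences below are those of the microRNAs whose rows were bright, meaning a mean signal at or above the median row, in the order of the ids, because they carry most of the values that follow. They are joined by miR-494-5p, which has the seed of miR-410-5p, and by both arms of *Mir665*, added after its batch difference was seen. Each reads 5′ to 3′ with the seed in capitals.
mmu-miR-673-5p: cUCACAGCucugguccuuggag
mmu-miR-673-3p: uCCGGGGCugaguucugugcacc
mmu-miR-341-5p: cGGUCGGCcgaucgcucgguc
mmu-miR-341-3p: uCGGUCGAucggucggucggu
mmu-miR-666-5p: aGCGGGCAcagcugugagagcc
mmu-miR-666-3p: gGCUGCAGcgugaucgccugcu
mmu-miR-667-5p: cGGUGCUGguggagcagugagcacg
mmu-miR-667-3p: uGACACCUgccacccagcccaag
mmu-miR-382-5p: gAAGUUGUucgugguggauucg
mmu-miR-382-3p: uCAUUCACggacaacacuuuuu
mmu-miR-134-5p: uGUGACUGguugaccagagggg
mmu-miR-134-3p: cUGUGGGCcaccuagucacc
mmu-miR-668-5p: gUAAGUGUgccucgggugagcaug
mmu-miR-668-3p: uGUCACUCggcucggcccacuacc
mmu-miR-377-5p: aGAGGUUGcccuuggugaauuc
mmu-miR-377-3p: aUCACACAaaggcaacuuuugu
mmu-miR-410-5p: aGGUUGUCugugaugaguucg
mmu-miR-410-3p: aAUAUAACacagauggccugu
mmu-miR-494-5p: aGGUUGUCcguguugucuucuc
mmu-miR-665-5p: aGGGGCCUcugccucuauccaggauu
mmu-miR-665-3p: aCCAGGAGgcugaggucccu
The 80 mature sequences found for the region held 77 distinct seeds, so few of these sequences share one. Only the 5p arm was found for *Mir376c*, *Mir487b* and *Mir539*, and only the 3p arm for *Mir485*. Seeds of their other arms are not counted. Among the sequences found, the 3 shared seeds paired miR-410-5p with miR-494-5p, miR-379-3p with miR-411-3p, and miR-376c-5p with miR-376b-5p. Total RNA was prepared on columns that retain mainly longer RNAs, and whether a microRNA row read its primary transcript, the hairpin or the mature strand was not measured.

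The values were log2 signals normalized by the authors, so a difference of 1 is a doubling. A row was called bright when its mean over the 8 arrays was at or above 7.67, the median of the row means over all rows with a symbol, and dim otherwise. By this rule 12 members were bright, with means of 7.83 to 12.89, and 36 were dim, with means of 3.91 to 7.66. Probes of different rows differ in how strongly they bind, so bright and dim do not rank the RNAs by abundance. All 8 array medians lay between 7.63 and 7.70 over the rows with a symbol, no 2 arrays were identical, and the lowest correlation between arrays was 0.994. *Sox3*, the targeted gene, had signals of 8.39, 8.56, 8.67 and 8.37 in *Sox3* null cells, against 9.92, 9.84, 9.73 and 9.76 in control cells, and the groups did not overlap. These null signals lay above the bright cut, although the paper, in its account of qRT-PCR, detected no *Sox3* expression in mutant samples. What this row reads in null cells was not tested, so a bright row is not by itself taken as expressed.

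Most of the region's RNAs had lower signals in *Sox3* null cells, and the difference was larger among the bright rows. The log2 difference, *Sox3* null minus control, was below 0 for 46 of the 48 members, where 50.0% of all tested rows were below 0. Its median was -0.45 for the 12 bright members (from -0.78 to -0.01) and -0.20 for the 36 dim members (from -0.70 to 0.12), while the median was 0.02 over all bright rows and -0.02 over all dim rows. With a fold of at least 1.4 and limma's adjusted p no higher than 0.05, 10 members (20.8%) were called lower in *Sox3* null cells, where 0.111% of all rows were. No member was called higher, where 0.320% of all rows were. The region was selected through this contrast, so nothing is read from these counts. The 10 became 6 without control replicate 1, control replicate 4 or *Sox3* null replicate 4, and 1 in the plain linear model. Of the 10, 6 were bright (*Meg3*, the row of AF357355 and *Rian*, *Mir382*, *Mir134*, *Mir377* and the row of *Mirg* and *Mir410*) and 4 dim (*Mir127*, *Rian*, *Mir300* and *Mir485*). *Mir485* lay just inside the fold limit with a difference of -0.49, and *Mir679* just outside it with -0.48.

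**Figure D1:**
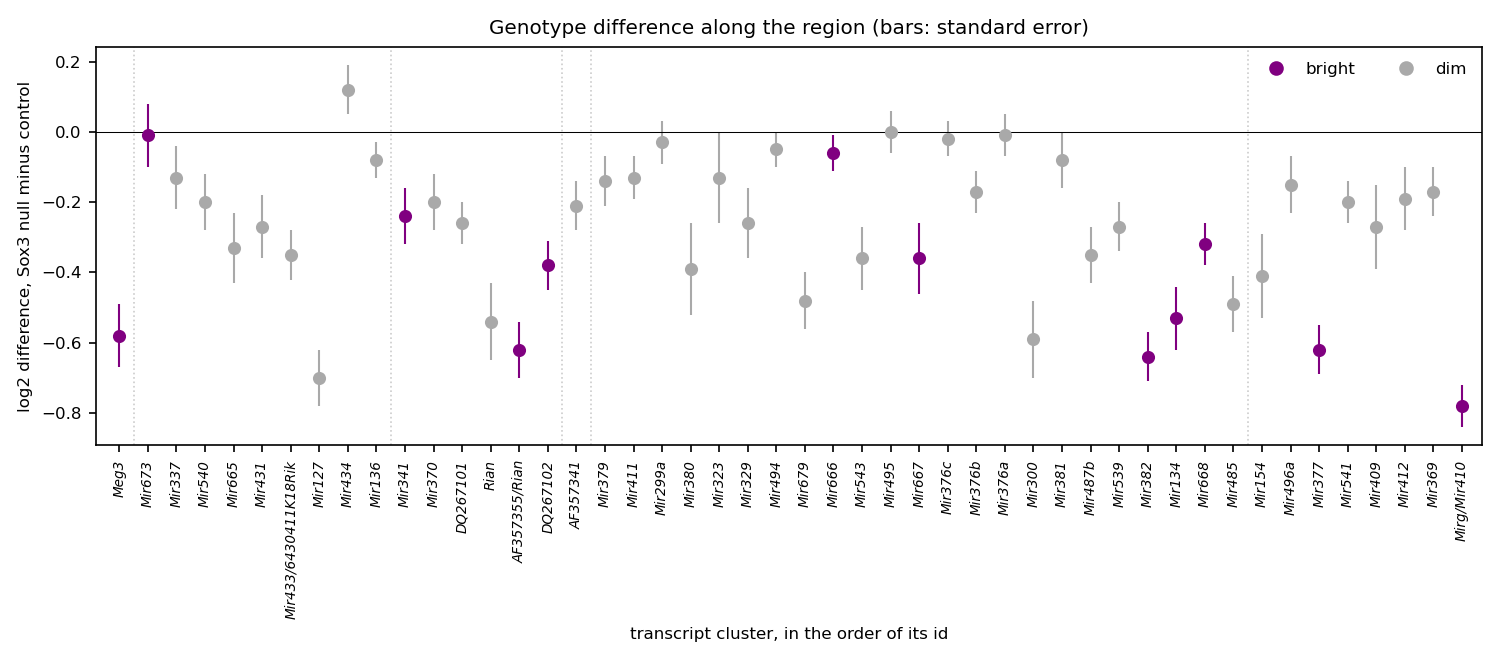
Log2 difference, *Sox3* null minus control (vertical axis), for the 48 members in the order of their ids (horizontal axis), from 4 arrays of each genotype. Points are bright (purple) or dim (grey) members, bars are standard errors and dotted lines part *Meg3*, the stretch up to *Rian*, *Rian*, the next snoRNA, the stretch from *Mir379* and *Mirg*. The lowest point is the row of *Mirg* and *Mir410* at -0.78 and the highest is *Mir434* at 0.12.

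*Meg3*, the long RNA with which the region begins, had signals of 10.55, 10.85, 10.58 and 10.40 in *Sox3* null cells, against 11.37, 11.05, 11.04 and 11.26 in control cells. Every null array lay below every control array, and the difference was -0.58 (standard error 0.09), here as below on the log2 scale. The gap was present in either batch, at -0.66 in batch 2 and -0.51 in batch 1.

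Between *Meg3* and *Rian* lay 9 rows with a median difference of -0.20, 1 of them bright. That bright row, *Mir673*, had 7.99, 8.21, 8.05 and 7.95 in *Sox3* null cells, against 8.37, 7.95, 8.02 and 7.90 in control cells. The groups overlapped, and the difference was -0.01 (standard error 0.09). *Mir127*, which lies opposite the coding gene *Rtl1* and can direct cleavage of its mRNA in the mouse, had 7.16, 7.19, 7.08 and 6.98 in *Sox3* null cells, against 7.77, 7.60, 7.81 and 8.02 in control cells. The groups did not overlap, and its difference of -0.70 (standard error 0.08) was the largest fall among dim members. *Mir434*, a neighbour on the same side of *Rtl1*, had 4.11, 4.34, 4.34 and 4.42 in *Sox3* null cells, against 4.25, 4.10, 4.17 and 4.22 in control cells. Its groups overlapped near the bottom of the signal range, and its difference of 0.12 (standard error 0.07) was the highest of the region. The other rows of this stretch, *Mir337*, *Mir540*, *Mir665*, *Mir431*, *Mir433* with *6430411K18Rik*, and *Mir136*, had differences from -0.35 to -0.08. Among them *Mir431*, *Mir433* and *Mir136* also had all null arrays below all control arrays. Whether these probes tell the strand of *Rtl1* from the opposite strand was not tested.

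Within *Rian* lay 6 rows, with differences from -0.62 to -0.20. The row named for *Rian* alone was dim, with 6.40, 7.04, 6.56 and 6.45 in *Sox3* null cells, against 7.24, 7.15, 7.12 and 7.07 in control cells. The groups did not overlap, although null replicate 2 came close to the lowest control array. The difference of -0.54 (standard error 0.11) was -0.67 without that replicate. A second row, shared by the snoRNA AF357355 and *Rian*, was bright and had 8.84, 9.24, 9.09 and 8.97 in *Sox3* null cells, against 9.63, 9.73, 9.56 and 9.70 in control cells. It was separated by genotype, with a difference of -0.62 (standard error 0.08). DQ267102, another snoRNA of the cluster, had 12.65, 12.89, 12.71 and 12.54 in *Sox3* null cells, against 13.08, 13.09, 13.12 and 13.01 in control cells. Its groups did not overlap either, at a difference of -0.38 (standard error 0.07). *Mir341*, a microRNA inside the gene, had 8.62, 9.01, 8.65 and 8.65 in *Sox3* null cells, against 9.18, 8.90, 8.92 and 8.90 in control cells. Here null replicate 2 reached into the control range, and the difference was -0.24 (standard error 0.08). The dim rows *Mir370* and DQ267101 had -0.20 and -0.26, and the snoRNA AF357341, which follows *Rian*, had -0.21.

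From *Mir379* to the row before *Mirg* lay 23 microRNA rows, with a median of -0.26 and 22 differences below 0. Their values ran from -0.64 to 0.00. *Mir382* had 7.22, 7.34, 7.87 and 7.60 in *Sox3* null cells, against 8.08, 7.91, 8.29 and 8.33 in control cells. The null and control ranges nearly touched, but within each batch both null arrays lay well below both control arrays, and the difference was -0.64 (standard error 0.07). *Mir134*, whose product limits dendritic spine size in rat neurons, had 8.19, 8.54, 8.57 and 8.56 in *Sox3* null cells, against 8.85, 8.86, 8.93 and 9.33 in control cells. It was separated by genotype at -0.53 (standard error 0.09). *Mir668* had 7.97, 7.90, 7.99 and 7.84 in *Sox3* null cells, against 8.32, 8.29, 8.09 and 8.28 in control cells. It was also separated, by a smaller -0.32 (standard error 0.06). *Mir667* had 8.78, 9.11, 8.92 and 8.70 in *Sox3* null cells, against 9.52, 9.12, 9.19 and 9.12 in control cells. Its ranges nearly met, with null replicate 2 just under the control arrays, and its difference was -0.36 (standard error 0.10). *Mir666* had 8.08, 8.11, 8.06 and 8.02 in *Sox3* null cells, against 8.26, 8.07, 8.13 and 8.04 in control cells. Its groups overlapped at -0.06 (standard error 0.05), so with *Mir673* it was a bright row of the region with almost no difference.

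Among the dim rows of the same stretch, *Mir300* had 5.94, 6.00, 5.88 and 5.97 in *Sox3* null cells, against 6.14, 6.42, 6.79 and 6.78 in control cells. All null arrays lay below all control arrays, at -0.59 (standard error 0.11), and the control arrays of batch 2 were the highest. *Mir495* had 4.18, 4.15, 4.16 and 4.15 in *Sox3* null cells, against 4.09, 4.31, 4.08 and 4.16 in control cells. *Mir376a* had 4.35, 4.43, 4.30 and 4.43 in *Sox3* null cells, against 4.27, 4.51, 4.35 and 4.41 in control cells. Both overlapped fully, at 0.00 and -0.01 (standard error 0.06 each), and with *Mir434* they were the dim rows with the highest differences. *Mir679* and *Mir485* had -0.48 and -0.49, and *Mir380*, *Mir543*, *Mir487b*, *Mir539*, *Mir329*, *Mir376b*, *Mir379*, *Mir411*, *Mir323*, *Mir381*, *Mir494*, *Mir299a* and *Mir376c* had differences from -0.39 to -0.02.

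Within *Mirg* lay 8 rows, all with differences below 0. The last, shared by *Mirg* and *Mir410*, had the largest difference of the region. It had 8.14, 7.96, 8.66 and 8.59 in *Sox3* null cells, against 8.92, 8.92, 9.37 and 9.28 in control cells. The groups did not overlap, at -0.78 (standard error 0.06), a fold of 1.72. *Mir377* had 7.30, 7.39, 7.63 and 7.75 in *Sox3* null cells, against 7.84, 8.10, 8.37 and 8.26 in control cells. It was separated by genotype at -0.62 (standard error 0.07), with the same difference of -0.62 in either batch. The 6 dim rows, *Mir154*, *Mir496a*, *Mir541*, *Mir409*, *Mir412* and *Mir369*, had differences from -0.41 to -0.15. Of the pair that shares a seed across these stretches, the row of *Mir410* thus had -0.78 and that of *Mir494* -0.05. The other pairs were closer, with *Mir379* and *Mir411* at -0.14 and -0.13, and *Mir376c* and *Mir376b* at -0.02 and -0.17.

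**Figure D2:**
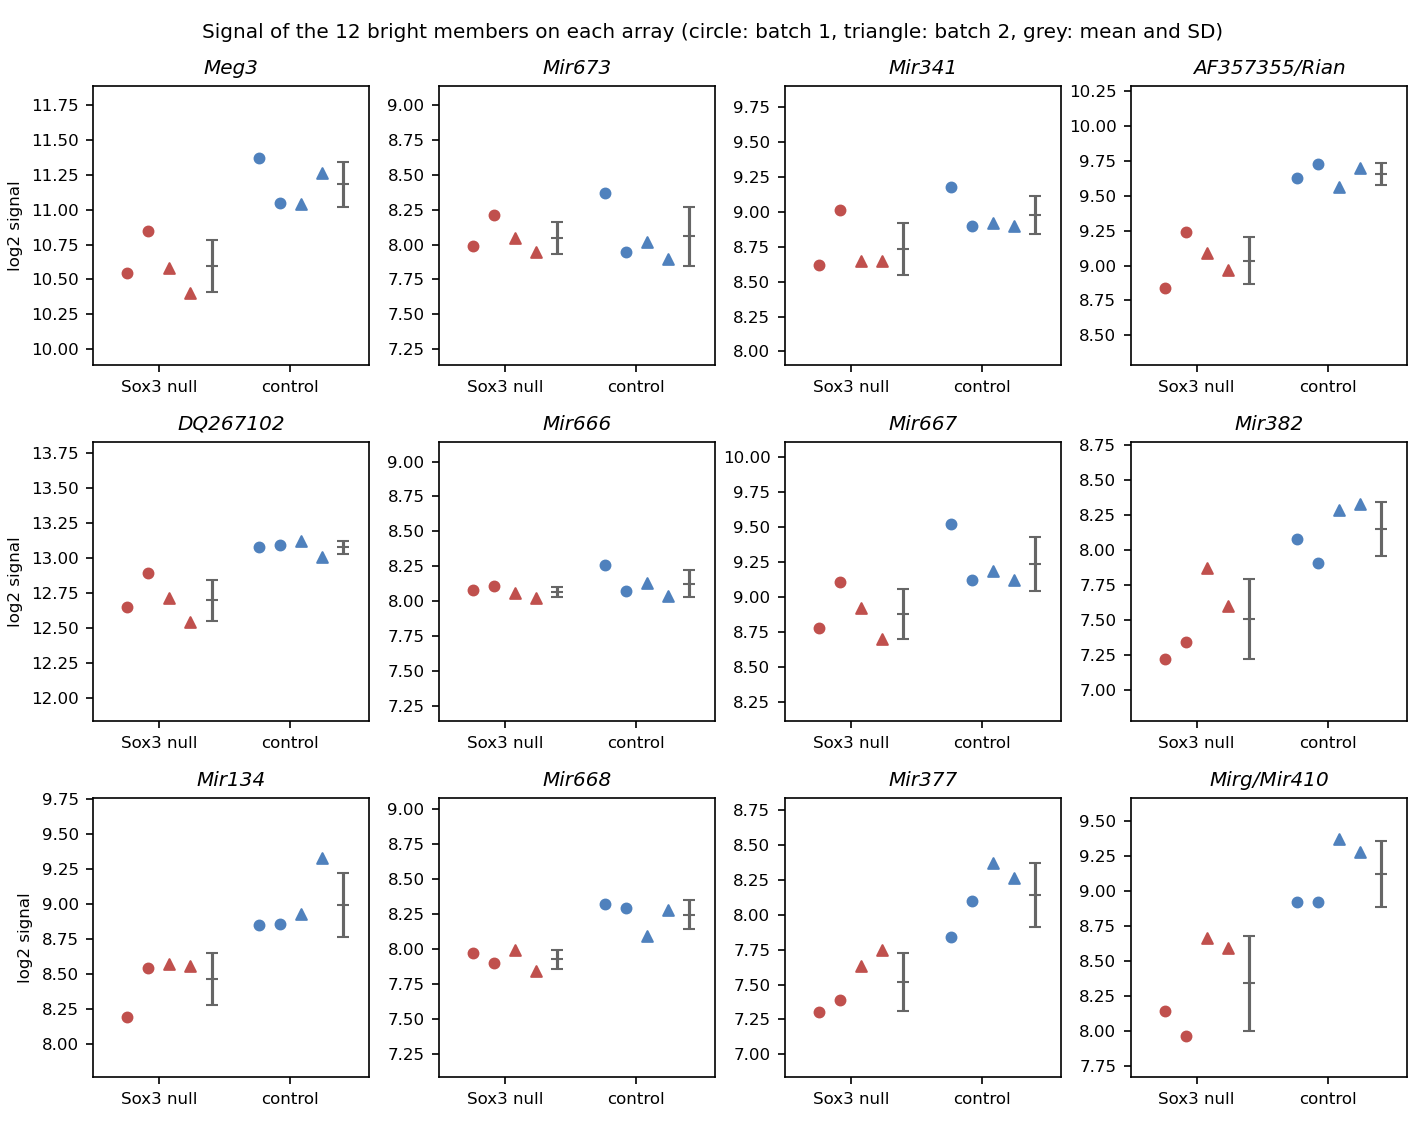
Log2 signal (vertical axis, 2 units in every panel) of the 12 bright members on each array, with *Sox3* null arrays in red at the left and control arrays in blue at the right. Arrays of batch 1 are circles and those of batch 2 triangles, with the mean and SD of 4 arrays in grey. Null arrays lie below all control arrays in 9 panels, and *Mir673*, *Mir341* and *Mir666* overlap.

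All null arrays lay below all control arrays for 22 members, 9 bright and 13 dim, where 2.19% of all rows did. Taken within each batch, both null arrays lay below both control arrays in either batch for 26 members, where 5.04% of all rows did. The dim rows were not alike. The 18 dim members at or above the dim median of 5.57 had a median difference of -0.30, and the 18 below it had -0.15, with 0 of the second set called. Across the 48 members, which share arrays and lie side by side, Spearman's rho of mean signal with the difference was -0.64. It was 0.01 among the 12 bright members and -0.72 among the 36 dim members. The G and C content of the hairpin, known for 39 of the 40 microRNA rows, had a rho of 0.71 with the mean signal and -0.32 with the genotype difference. Its median was 59.4% in bright and 43.4% in dim rows. The part of hairpin composition in the differences was not tested.

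As a median over the 12 bright members, the signal was 8.17, 8.37, 8.61 and 8.57 on the *Sox3* null arrays, against 8.89, 8.88, 8.92 and 9.01 on the control arrays. All null arrays were lower. For the 36 dim members the median was 5.32, 5.66, 5.38 and 5.47 on the null arrays, against 5.64, 5.64, 5.63 and 5.83 on the control arrays. Null replicate 2 overlapped the control arrays among dim rows. It was the highest null array for 30 of the 48 members, and for 36.6% of all rows. Without it the median difference of dim members was -0.27, against -0.20 with all arrays. Over the fits that left out 1 array the dim median ran from -0.27 to -0.15 and the bright median from -0.52 to -0.40.

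The 2 differentiation batches gave the genotype difference separately, and in either most of the region lay below 0. The median difference of bright members was -0.50 in batch 2 and -0.43 in batch 1, and that of dim members -0.25 in batch 2 and -0.18 in batch 1. Differences were below 0 for 45 members in batch 2 and 44 in batch 1. Across the members, Pearson's r between the batches was 0.73 and rho 0.76, and over all rows r was 0.47. As a description this says that the rows keep much of their order, and not that the batches are independent of the selection.

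**Figure D3:**
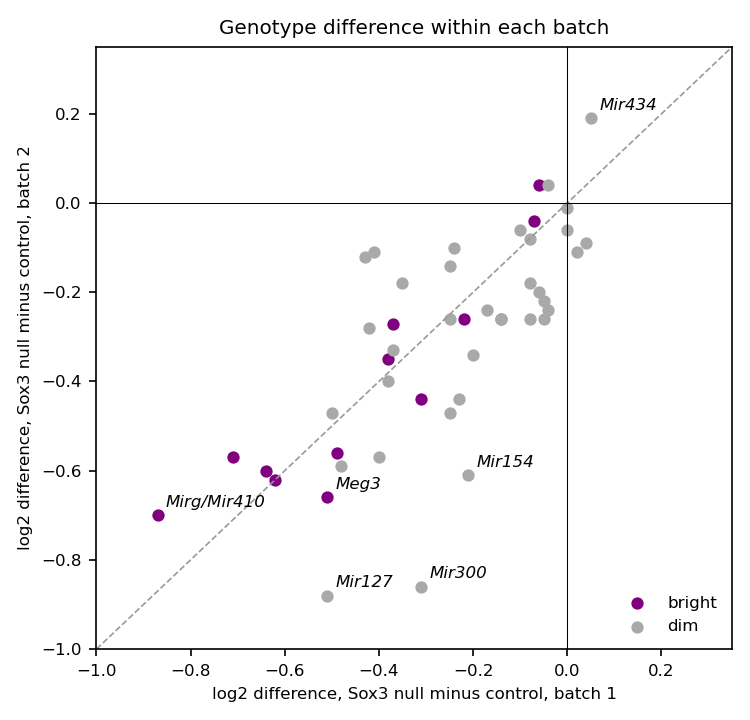
Log2 difference, *Sox3* null minus control, in batch 2 (vertical axis) against batch 1 (horizontal axis) for the 48 members, each from 2 arrays of either genotype. Bright members are purple and dim members grey, and the dashed line marks equal differences. *Mir300* lies farthest below the line, with -0.86 in batch 2 and -0.31 in batch 1, and *Mir154* (-0.61 in batch 2, -0.21 in batch 1) and *Mir127* (-0.88 in batch 2, -0.51 in batch 1) lie next.

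Whether the genotype difference changed in size between batches was tested with an interaction term, which the selection did not use directly. No member passed at an adjusted p of 0.05 or less in limma (the smallest among members was 1.00), and of all rows 0% did. The plain linear model also gave 0. At an unadjusted p under 0.05 there were 2 members, where 3.05% of all rows passed. *Mir300* had the larger term, with a difference of -0.86 in batch 2 and -0.31 in batch 1 (unadjusted p = 0.00215 from limma, adjusted p = 1.00). *Mir127* had -0.88 in batch 2 and -0.51 in batch 1 (unadjusted p = 0.0203 from limma, adjusted p = 1.00). A p that misses the threshold in 8 arrays does not show that the differences were equal.

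The comparison of batch 2 with batch 1, with genotype in the model, was not used to select the region and was tested. A few bright microRNA rows towards the *Mirg* end were higher in batch 2, and 1 dim row near *Meg3* was lower. The median difference, batch 2 minus batch 1, was -0.07 for bright and -0.02 for dim members, where it was 0.02 for all bright and -0.01 for all dim rows. At adjusted p and fold together, 1 member was called higher in batch 2, where 1.03% of all rows were. None was called lower, where 1.47% of all rows were, and the plain linear model called none lower either. With an unadjusted p under 0.05, limma gave 4 members higher and 4 members lower in batch 2, so neither direction prevailed. At an adjusted p of 0.05 or less without the fold limit, 3 members were higher, where 10.9% of all rows were, and 1 was lower, where 9.35% of all rows were. Together these 4 members are 8.33% of the region, under the 20.2% of all rows that differed between batches at that threshold.

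The called row was the one shared by *Mirg* and *Mir410*. It had 8.66, 8.59, 9.37 and 9.28 in batch 2, the first pair from *Sox3* null and the second from control cells (an order kept below), against 8.14, 7.96, 8.92 and 8.92 in batch 1. Within each genotype both batch 2 arrays lay above both batch 1 arrays. The difference was 0.49 (95% interval 0.36 to 0.63, adjusted p = 0.000386 from limma), with 0.57 in *Sox3* null and 0.41 in control cells. Over the fits that left out 1 array it ran from 0.44 to 0.53, and without *Sox3* null replicate 2 or 3 it was under the fold limit. *Mir382* had 7.87, 7.60, 8.29 and 8.33 in batch 2, against 7.22, 7.34, 8.08 and 7.91 in batch 1. It was higher in batch 2 within either genotype, at 0.38 (95% interval 0.23 to 0.54, adjusted p = 0.00367 from limma). *Mir377* had 7.63, 7.75, 8.37 and 8.26 in batch 2, against 7.30, 7.39, 7.84 and 8.10 in batch 1. It too was higher within either genotype, at 0.34 (95% interval 0.20 to 0.49, adjusted p = 0.00443 from limma). *Mir665*, the row that fell, had 6.58, 6.86, 6.95 and 7.38 in batch 2, against 7.22, 7.40, 7.60 and 7.48 in batch 1. Both batch 2 arrays were below both batch 1 arrays within either genotype, at -0.48 (95% interval -0.70 to -0.26, adjusted p = 0.00704 from limma). It did not pass in the plain linear model (adjusted p = 0.0865).

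*Mir134*, which lies beside *Mir382*, had a batch difference of 0.24 (95% interval 0.03 to 0.44) and did not pass (adjusted p = 0.107 from limma). Of the rows with large falls by batch, *Mir380* had 5.19, 5.62, 5.64 and 5.97 in batch 2, against 5.52, 6.06, 6.07 and 6.27 in batch 1. *Mir337* had 6.52, 6.71, 6.81 and 6.86 in batch 2, against 6.87, 7.05, 7.23 and 6.80 in batch 1. The batches overlapped for both, and with -0.38 (adjusted p = 0.0672 from limma) and -0.26 (adjusted p = 0.0704 from limma) neither passed. *Meg3* had -0.14 (95% interval -0.35 to 0.07) and *Rian* -0.16 (95% interval -0.40 to 0.08), neither of which passed. The 8 rows within *Mirg* had a median of 0.08, the 6 rows within *Rian* -0.11 and the 9 rows between *Meg3* and *Rian* -0.14. For no member did all batch 2 arrays lie above, or all below, all batch 1 arrays. Across the members, r between the batch difference in *Sox3* null and that in control cells was 0.63, and over all rows it was 0.78.

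**Figure D4:**
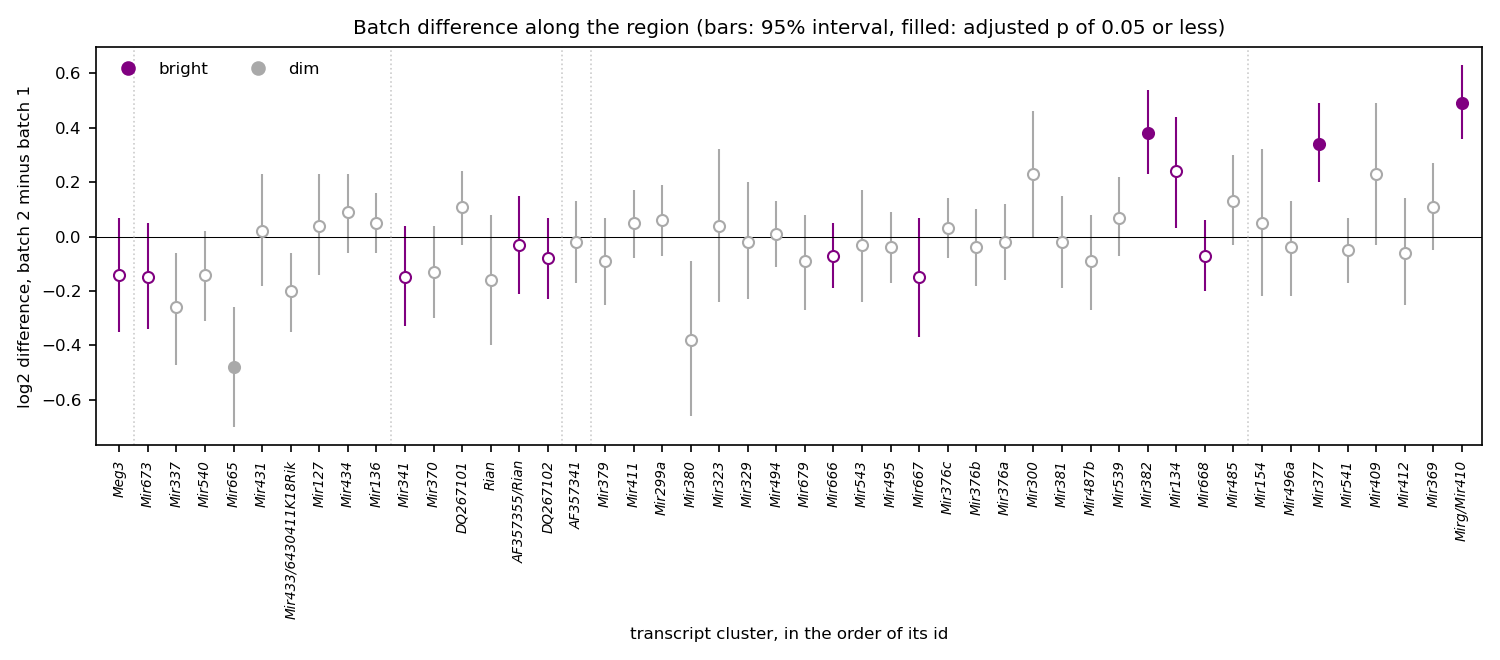
Log2 difference, batch 2 minus batch 1 (vertical axis), for the 48 members in the order of their ids (horizontal axis), from 4 arrays of each batch with genotype in the model. Bars are 95% intervals, and points are filled at an adjusted p of 0.05 or less, which *Mir665* (-0.48), *Mir382* (0.38), *Mir377* (0.34) and the row of *Mirg* and *Mir410* (0.49) reached.

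The coding genes of the region had differences in both directions, none of which passed. *Dlk1*, a transmembrane protein related to Notch ligands and the last named gene before the chosen ids, had 9.11, 9.21, 9.11 and 9.28 in *Sox3* null cells, against 9.01, 8.96, 9.00 and 9.08 in control cells. Its groups did not overlap, with the null arrays above, but the difference of 0.17 (95% interval 0.05 to 0.29) did not pass (adjusted p = 0.205 from limma). *Rtl1*, derived from a retrotransposon, had 6.65, 6.65, 6.90 and 6.57 in *Sox3* null cells, against 7.00, 6.93, 6.83 and 7.00 in control cells. The difference was -0.25 (95% interval -0.41 to -0.08, adjusted p = 0.182 from limma) with overlapping groups. *Dio3*, which inactivates thyroid hormone, had 5.40, 5.48, 5.67 and 5.70 in *Sox3* null cells, against 5.74, 5.57, 5.88 and 5.55 in control cells, and -0.12 (adjusted p = 0.565 from limma). Of 16 coding genes of the region and its flanks, limma called 0 by genotype, with 1 lower and 1 higher at an unadjusted p under 0.05, and their median was 0.00.

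Among 13 measured imprinted genes elsewhere, 0 were called by genotype in limma (1 lower and 3 higher at an unadjusted p under 0.05), and their median was 0.04. *Cdkn1c*, an inhibitor of cyclin-dependent kinases, had 0.28 (adjusted p = 0.0793), *Peg3*, a zinc finger factor, 0.25 (adjusted p = 0.117) and *Zim1* 0.22 (adjusted p = 0.222). Of 15 genes of microRNA processing, 0 were called (1 lower and 1 higher at an unadjusted p under 0.05 in limma). The smallest p-values there belonged to *Prkra* (0.18) and *Tarbp2* (-0.11), which bind Dicer, and *Lin28a* (-0.16), which blocks let-7 maturation, none of which passed. Of 16 genes of imprint and DNA methylation upkeep, 1 passed at the adjusted p without the fold limit. This was *Dnmt3b*, a de novo DNA methyltransferase, which was lower in *Sox3* null cells by limma at -0.33 (95% interval -0.46 to -0.21, adjusted p = 0.0154). It had 10.33, 10.35, 10.34 and 10.40 in *Sox3* null cells, against 10.78, 10.79, 10.60 and 10.58 in control cells, without overlap. *Jarid2*, a Polycomb partner, had -0.24 (adjusted p = 0.0670) and *Aff3*, which binds imprint control regions, 0.18 (adjusted p = 0.211).

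MicroRNA rows outside the region had medians close to 0. The 33 bright ones had a median genotype difference of -0.04, with 72.7% below 0, and the 263 dim ones 0.00, with 52.5% below 0. Some rows of repeated families held identical values on every array. Counted once each, they left 274 rows, of which the 241 dim ones had a median of 0.00, with 53.1% below 0, and the 33 bright ones were the same in number. All 48 members were distinct. The region's own microRNA rows had medians of -0.34 for 8 bright and -0.20 for 32 dim rows. Of the 296 rows elsewhere, limma gave 18 lower and 15 higher at an unadjusted p under 0.05. Only 1 was called lower, *Mir302d* of the ES cell microRNA cluster at -0.79 (adjusted p = 0.0455 from limma). This call was lost after quantile normalization (-0.79, adjusted p = 0.0714 from limma). Of the same cluster, *Mir302c* had -0.82 (adjusted p = 0.0538), *Mir302a* -0.79 (adjusted p = 0.0740) and *Mir302b* -0.61 (adjusted p = 0.162), none of which passed in limma. *Mir367* of that cluster had -0.38 and did not pass either. The falls were larger in batch 1, with -0.36 in batch 2 and -1.21 in batch 1 for *Mir302d*, and -0.32 and -1.32 for *Mir302c*. *Mir181b-1* had 0.48 and passed the adjusted p alone (0.00101 from limma), and after quantile normalization it was called higher at 0.50 (adjusted p = 0.00113 from limma). Of 35 rows of other C/D snoRNAs (*Snord* symbols, 33 of them distinct), limma called 0 (0 lower and 2 higher at an unadjusted p under 0.05), and their median was 0.01. *Snord22* had 0.25, *Snord87* 0.24 and *Snord61* 0.17, none of which passed.

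**Figure D5:**
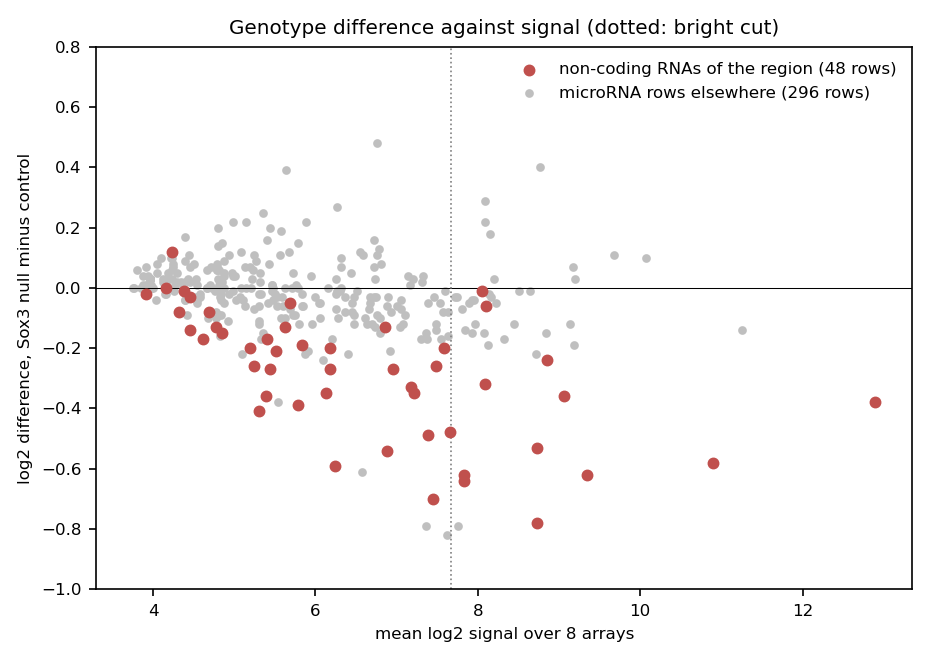
Log2 difference, *Sox3* null minus control (vertical axis), against mean log2 signal over 8 arrays (horizontal axis) for the 48 members (red) and 296 microRNA rows elsewhere (grey). The dotted line marks 7.67, the bright cut. The 12 bright members, of all kinds of RNA, have a median of -0.45, and the 8 bright microRNA rows among them -0.34. Bright microRNA rows elsewhere have a median of -0.04.

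Markers of other cells moved with genotype in part. Of 8 measured fibroblast markers, listed because the methods describe feeder fibroblasts for the ES cells (the labels name gelatine), *Thy1*, a surface protein, was called lower at -0.51 (adjusted p = 0.00525 from limma) and the other 7 were not. A summed level is the log2 of a list's signals added off the log scale, so the brightest rows weigh most. For all 8 fibroblast markers, *Thy1* included, it ranged from 9.85 to 10.25 in *Sox3* null and from 10.14 to 10.40 in control cells. Only *Col1a1* and *Col1a2* were bright, with *Dcn*, *Lum* and *Postn* at means of 5.83, 4.53 and 5.12. Of 6 pluripotent cell markers, *Nanog* was lower at the adjusted p alone, at -0.37 (adjusted p = 0.0464 from limma), with summed levels of 12.57 to 13.11 in *Sox3* null and 12.83 to 13.07 in control cells. The 5 progenitor markers were all bright, but so were all 6 pluripotent and all 4 neuron markers. Brightness therefore does not single out the labelled cell type. Summed progenitor levels were 13.87 to 13.94 in *Sox3* null and 13.62 to 13.75 in control cells, and *Nes* was called higher at 0.49 (adjusted p = 0.00947 from limma). After quantile normalization *Nes* had 0.48 (adjusted p = 0.0141 from limma), just under the fold limit. *Sox2* and *Pax6* had 0.21 and 0.12 and did not pass. Of 4 neuron markers *Map2* was higher at the adjusted p alone (0.47, adjusted p = 0.0132 from limma). At an unadjusted p under 0.05 in limma, 3 of the 4 were higher and 1 lower. The lower one was *Stmn2*, the brightest of the 4 with a mean of 11.86, at -0.17 (adjusted p = 0.317 from limma). Summed levels, in which *Stmn2* weighs most, were 12.30 to 12.42 in *Sox3* null and 12.23 to 12.57 in control cells. By batch, summed pluripotent markers ranged from 12.84 to 13.11 in batch 2 and 12.57 to 12.83 in batch 1. *Dppa5a*, the brightest of the 6, was called higher (0.52, adjusted p = 0.00246 from limma). At the adjusted p alone, *Tdgf1* was higher (0.24, adjusted p = 0.0209 from limma) and *Esrrb* lower in batch 2 (-0.28, adjusted p = 0.00746 from limma), so these markers did not move together. Summed fibroblast markers ranged from 9.85 to 10.15 in batch 2 and 10.12 to 10.40 in batch 1, with *Col1a2* called lower (-0.50, adjusted p = 0.00300 from limma). It was also under the fold limit after quantile normalization (-0.45, adjusted p = 0.00404 from limma). The part of these cells in the region's genotype and batch differences was not tested.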

How the data were processed

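Expression was measured on Affymetrix Mouse Gene 1.0 ST arrays, 1 for each of 8 cultures. The deposited values are log2 signals per transcript cluster that the authors had normalized and summarised. Partek is named in the submitters' processing notes. The normalization method and the genome build behind the row annotation are not stated by the labels or the paper. Of 35556 rows, 21789 had 1 symbol, 1621 several and 12146 none here, from the platform annotation. All 48 members matched the GRCm38.p6 gene table, which gave chromosome, gene bounds and order (1 pair of neighbours lies the other way round), and no coordinates are given. The table held 0 columns of other samples.

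The 23410 rows with a symbol were analysed in R 4.3.3 by limma 3.58.1. The model held genotype and batch, or these and their product, and p-values received Benjamini-Hochberg adjustment over all those rows. The methods' ANOVA with batch as a factor corresponds to the plain linear model used as an alternative. The median residual SD was 0.128 for members and 0.0869 for all rows on the log2 scale, and the number of arrays limits the precision. P-values measure the spread between these cultures. Steps were tested on simulated data. Members, comparison lists and the rule for named genes (rows of *Meg3*, *Rian* and *Mirg*, bright members, the 3 largest changes each way, and 3 genes a list by p) were chosen with earlier results of these data known. Sequences were read from the RefSeq tables, and lists were described by counts and medians with no set test. Marker genes beyond 3 of a list, *Dnmt3b* by array and *Mir665* sequences were chosen after their values were seen.

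Replicate numbers 1 and 2 mark batch 1 and numbers 3 and 4 batch 2 in the labels. Deviations of same-numbered arrays from their genotype's mean correlated at 0.39 to 0.68. Once batch was also removed, they correlated at -0.32 (batch 1) and 0.30 (batch 2). With 2 arrays per genotype and batch, each batch gives only 1 such value. Whether the numbers pair arrays beyond batch, which is in the model, therefore cannot be told. Alternatives changed the batch term, the rows tested, the variance estimate, the weights, the normalization, the cut between bright and dim and the arrays kept.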

Additional observations from a re-analysis of the deposited data

Results flagged for a closer look

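Single arrays stood apart from the other 3 of their genotype or batch for a few members by Dixon's test. The test was run on 84 combinations of member and group. Chance marks about 5% when the arrays of a group are all alike. Each group here mixes batches or genotypes, so that rate is only a guide. *Mir341* was high at 9.01 in null replicate 2 (others 8.62 to 8.65) and at 9.18 in control replicate 1 (others 8.90 to 8.92). *Mir134* was low at 8.19 in null replicate 1 (others 8.54 to 8.57) and high at 9.33 in control replicate 4 (others 8.85 to 8.93). *Mir337* was high at 7.23 in control replicate 1 (others 6.80 to 6.86), and *Mir668* low at 8.09 in control replicate 3 (others 8.28 to 8.32). Among the batch 2 arrays, *Mir495* was low at 4.08 in control replicate 3 (others 4.15 to 4.16).

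*Mir376c*, a dim row with a mean of 3.91, moved in opposite directions in the batches. Both null arrays lay below both control arrays in batch 2 and above them in batch 1, with differences of -0.09 in batch 2 and 0.04 in batch 1. The interaction was -0.13, and it did not pass in limma (unadjusted p = 0.210, adjusted p = 1.00).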

How the results depend on the processing

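The genotype count, which describes the selection, was 10 and depended on the fit. It was 2 with no batch term, 4 with all rows tested, 6 with dim rows left out, 1 in the plain linear model, 1 in batch 1 alone and 3 in batch 2 alone. Leaving out 1 array gave 6 to 11, with 6 without control replicate 1, control replicate 4 or *Sox3* null replicate 4. With the replicate number as a block in place of batch (replicate block) it was 10, the same as with batch. The bright median of -0.45 and the dim median of -0.20 cannot change there, because each number holds 1 array of either genotype. No genotype difference given for a single member changed sign where it was called. Over all alternatives 428 such values stayed within the replicate SD and 4 moved by more, those of *Mir127* and *Mir300* within single batches. Each batch holds both genotypes equally, so changing the batch term, rows tested, variance estimate or bright cut cannot move these differences. Many of the 428 were therefore fixed in advance, and only counts and adjusted p-values could change there. By batch, the 1 member called higher became 0 with no genotype term and with array weights, and ran from 0 to 1 over the fits without 1 array, being 0 without *Sox3* null replicate 2 or 3. The count called lower was 1 in *Sox3* null arrays alone and 0 to 1 without 1 array. The 3 higher at adjusted p alone were 0 with no genotype term, and 3 to 4 without 1 array. The 1 lower was 0 with dim rows left out (*Mir665* is dim), 0 in the plain linear model, 2 with an intensity trend, 0 in control arrays alone and 1 to 3 without 1 array, with 3 without control replicate 2. With no genotype term the adjusted p was 0.216 for the row of *Mirg* and *Mir410*, 0.254 for *Mir382* and 0.295 for *Mir377*. In control arrays alone it was 0.0795 for *Mir382*, 0.111 for *Mir377* and 0.174 for *Mir665*, and in *Sox3* null arrays alone 0.0548 for *Mir377*. The interaction count was 0 under every alternative run. After quantile normalization, which moved the median of all rows by 0.03 or less, the progenitor markers called higher were 0 (*Nes* was lost) and the fibroblast markers called lower by batch 0 (*Col1a2*). Of the microRNA rows elsewhere, 0 were then called lower and 1 higher by genotype and 1 lower by batch, and 3 *Snord* rows were lower by batch. The causes of these changes were not tested.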

Other observations

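The id range of the region also held 10 rows without a symbol here, which are not members. All 10 had a difference, *Sox3* null minus control, below 0, with a median of -0.54 (from -0.70 to -0.14). For 7 all null arrays lay below all control arrays, where 2.19% of the rows with a symbol did. Row 10398354, between *Mir370* and DQ267101 in the id order, had 11.33, 11.64, 11.26 and 11.46 in *Sox3* null cells, against 12.05, 12.19, 11.86 and 12.22 in control cells, a difference of -0.65 (standard error 0.10). Row 10398366, which follows DQ267102, had 9.46, 9.81, 9.84 and 9.89 in *Sox3* null cells, against 10.27, 10.42, 10.37 and 10.75 in control cells, at -0.70 (standard error 0.11). Rows 10398372 and 10398376 held identical values on every array, both at -0.58. They are 1 measurement, which the counts and the median above hold as separate rows. What these rows measure was not given in the tables used here, and they come from the contrast through which the region was selected.

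The G and C content of hairpins was known for 229 of 296 microRNA rows elsewhere (77.4%), too few to set beside the region, so that comparison was void.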
